A study of Homo sapiens with 19 samples.

Results

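The AP-1 and immediate early genes described here are 10 transcription factor genes, FOS, FOSB, FOSL1, FOSL2, JUN, JUNB, JUND, EGR1, EGR3 and ATF3, in a human macrophage model given vitamin C (vit C). Each was found by its gene name on the array, and they are 10 of 31033 gene names, measured by 20 of 50238 probes. THP-1 is a human monocytic leukaemia cell line, so each flask held cells of 1 line and no donor varies between flasks. All cells, controls included, had been differentiated into adherent macrophage-like cells with 30 nM PMA (phorbol myristate acetate) and rested, and then received 0.1 mM vit C or were left untreated (UT). RNA was taken 8, 24, 48 and 96 h later and hybridised to Agilent one-colour arrays. The UT group held 2, 3, 2 and 3 arrays at these times and the vit C group 3, 2, 2 and 2, or 19 arrays in 8 groups.

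Immediate early genes are transcribed within minutes of a stimulus, without new protein synthesis, and their messages are short-lived. Fos proteins pair with Jun proteins through a leucine zipper to form AP-1, which binds the AP-1 site. ATF3 is a stress-induced relative that can also pair with Jun proteins and often represses. EGR1 and EGR3 are zinc finger factors that bind a GC-rich site. PMA activates protein kinase C and through it the MAP kinases, which act on serum response factor and its ternary complex partners at these genes. In monocytes the same factors accompany the passage to adherent macrophages.

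Many of these genes fell with time in culture in both arms, and 3 of them were lower with vit C than without it at 96 h. In UT cells 5 of the 10 (EGR1, EGR3, FOSL1, JUNB and ATF3) were lower at 96 h than at 8 h, EGR1 by 12.5-fold. Of all genes 7.16% were called lower in that span. With vit C, 7 members were lower at 96 h than at 8 h, beside 18.1% of all genes, FOSL2 by its dimmest probe alone. Between the arms none of 8, 7 and 8 members tested at 8, 24 and 48 h was called, beside 0.553%, 1.67% and 3.64%. At 96 h 3 of 8 were called, all lower with vit C, beside 10% of all genes. These were FOSB by 4.90-fold, ATF3 by 3.41-fold and EGR3, at a time when slide and treatment cannot be told apart. EGR3 was dim at 96 h, where its difference of -2.05 on the log2 scale became -0.70, with no call, when signals under 20 were raised to 20, and its call was lost without either vit C array. JUN ran the other way, with both vit C arrays above all 3 UT arrays at 96 h, a difference that missed the threshold.

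The regulatory sequence of these genes is shown for 4 members with contrasting courses, EGR1 (the steepest fall), FOSB and FOS (below UT at all 4 times) and JUN (above UT at 96 h). Promoter sequences came from RefSeq (GRCh38.p14), and entries of 8 of the 10 members were used. The 250 bases before the annotated start are printed 5′ to 3′ on the gene's strand, and capitals mark matches, on either strand, to 5 motifs chosen after the sequences were seen. These were the AP-1 site (TGANTCA), the core of the cyclic AMP response element or CRE (TGACGT), the EGR site (GCGNGGGCG), the CArG box bound by serum response factor, and the TATA box (TATAAA). EGR1 lies on the plus strand of chromosome 5 (chr5:138465229-138465478), FOSB on the plus strand of chromosome 19 (chr19:45467746-45467995), FOS on the plus strand of chromosome 14 (chr14:75278578-75278827) and JUN on the minus strand of chromosome 1 (chr1:58784048-58784297).
EGR1: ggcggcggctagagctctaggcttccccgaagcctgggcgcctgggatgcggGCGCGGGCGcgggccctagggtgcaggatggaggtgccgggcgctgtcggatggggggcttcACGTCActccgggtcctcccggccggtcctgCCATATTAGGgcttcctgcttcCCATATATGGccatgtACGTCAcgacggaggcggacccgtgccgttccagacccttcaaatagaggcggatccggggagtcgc
FOSB: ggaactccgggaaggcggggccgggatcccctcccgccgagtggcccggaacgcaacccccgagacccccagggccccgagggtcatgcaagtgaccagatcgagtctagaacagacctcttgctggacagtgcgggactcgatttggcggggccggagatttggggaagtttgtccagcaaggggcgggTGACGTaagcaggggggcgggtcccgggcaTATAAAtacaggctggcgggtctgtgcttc
FOS: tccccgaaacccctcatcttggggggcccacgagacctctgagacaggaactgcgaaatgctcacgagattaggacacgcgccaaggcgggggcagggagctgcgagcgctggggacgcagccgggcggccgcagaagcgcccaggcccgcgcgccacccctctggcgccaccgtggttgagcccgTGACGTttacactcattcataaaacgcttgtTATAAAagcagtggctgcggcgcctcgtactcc
JUN: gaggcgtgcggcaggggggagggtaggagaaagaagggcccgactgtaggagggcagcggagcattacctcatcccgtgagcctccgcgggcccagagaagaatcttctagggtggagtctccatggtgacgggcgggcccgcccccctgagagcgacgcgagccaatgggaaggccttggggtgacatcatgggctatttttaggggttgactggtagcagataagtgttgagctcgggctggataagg

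In the EGR1 stretch the capitals are 2 CArG boxes that begin at -105 and -83 from the start, CRE cores at -136 and -67, and an EGR site at -198. Of 35116 promoter windows of 300 bases (these 250 and the first 50 transcribed), 1.29% held a CArG box and 0.031% held 2 or more. FOS and FOSB shared a layout, with a CRE core at -64 and -60 and a TATA box at -33 and -30, respectively. A CRE core was in 7.98% of all windows, a TATA box in 11.53%, an EGR site in 9.43% and an AP-1 site in 7.71%. The JUN window had no exact match to any of the 5 motifs. Among the other members, FOSL2 had a CRE core at -66 and an AP-1 site at 5, JUNB a TATA box at -31, JUND CRE cores at -200, -198 (overlapping) and -87, and ATF3 a TATA box at -230 of 1 of its 2 listed starts. A match is a description of letters and not of binding. Bases farther upstream than these 250 were not searched, so the absence of a match holds for the window alone.

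Values are given as normalized signal, the log2 of the scanner signal minus the 75th percentile of that array, for the probe of a gene with the highest mean over all arrays. A difference of 1 is a doubling. Probes differ in brightness for reasons other than RNA, so levels are compared between samples and not between genes. A gene was called when a probe of it differed by at least 1 on the log2 scale with a q (Benjamini-Hochberg over all probes tested, limma) of at most 0.05. A gene whose probes pointed in opposite directions was removed from that comparison, as in the study's methods. The smallest p that an exact 2-sided permutation test could give is 0.333 for 2 against 2 arrays and 0.200 for 2 against 3, so a single gene tested in that way could not reach 0.05.

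Some facts of the arrays touch every result. Arrays of a group correlated at 0.962 to 0.990 over 14 pairs. The arrays lay on 4 slides. Slide 1 held only UT arrays, 8, 24 and 48 h entire and 1 of 96 h. Slide 2 held the other 2 UT arrays of 96 h and vit C arrays of 8 and 24 h with 1 of 48 h, slide 3 the other vit C array of 48 h, and slide 4, scanned on another day, both vit C arrays of 96 h. At 96 h, slide and treatment therefore cannot be told apart. At 8, 24 and 48 h the arms shared no slide either, and a fixed slide term could be fitted only through the UT arrays of 96 h on slides 1 and 2. With that term the genes called between the arms went from 139 to 9 at 8 h, from 437 to 20 at 24 h and from 926 to 138 at 48 h. Both vit C arrays of 96 h also had the most probes well above background (69.8% and 72.8%, against 57.5% to 68.6% on the others). The 75th percentiles of these arrays, by which signals were shifted, were the highest as well (806.3 and 923.7, against 296.8 to 638.5). The macrophage identity of the cells was checked with 8 markers, of which CD14, CD68, ITGAM, ITGAX, SPI1, CSF1R and CD163 were well above background on all 19 arrays and LYZ on 18, while the 3 epithelial markers were on none. Among the T and B cell markers reported here, CD3E and CD79A were well above background on all 19.

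**Figure D1:**
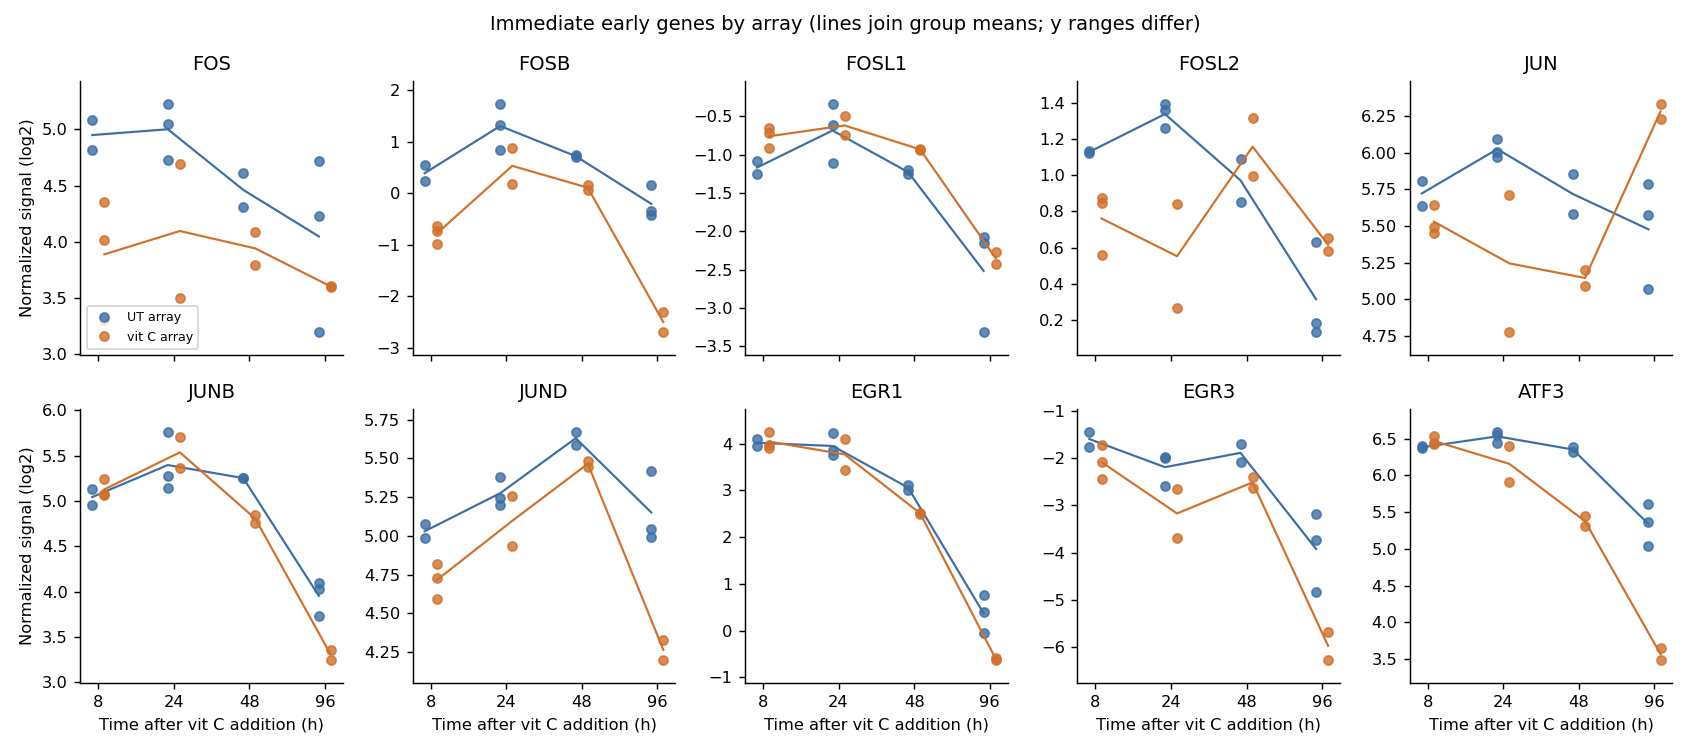
Normalized signal (log2, y axis, a separate range for each gene) of the 10 genes on each array against time after vit C addition (x axis, not to scale). Blue points are UT arrays, orange points vit C arrays, and lines join group means. EGR1 ends at -0.58 and -0.63 with vit C and at -0.06 to 0.76 in UT cells, while JUN ends higher with vit C.

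The Fos family began with FOS, the prototype immediate early gene. In UT cells FOS lay at 5.08 and 4.82 at 8 h, 5.05, 5.23 and 4.73 at 24 h, 4.31 and 4.61 at 48 h, and 4.23, 3.20 and 4.72 at 96 h. With vit C it lay at 4.35, 4.01 and 3.30 at 8 h, 3.50 and 4.69 at 24 h, 4.09 and 3.79 at 48 h, and 3.60 on both arrays at 96 h. Every vit C array was below every UT array at 8, 24 and 48 h, and the groups overlapped at 96 h, where 1 UT array was the lowest of all. The differences, vit C minus UT, were -1.06 ± 0.43 (SE) at 8 h (q = 0.316), -0.91 at 24 h, -0.52 at 48 h and -0.45 at 96 h. None was called. Averaged over the 4 times the difference was -0.73 ± 0.22 (q = 0.0413), short of the threshold of size.

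FOSB, whose shorter splice form is known for its stability, differed more. In UT cells it lay at 0.55 and 0.23 at 8 h, 0.85, 1.73 and 1.33 at 24 h, 0.74 and 0.70 at 48 h, and 0.16, -0.34 and -0.43 at 96 h. With vit C it lay at -0.73, -0.63 and -0.99 at 8 h, 0.18 and 0.88 at 24 h, 0.16 and 0.05 at 48 h, and -2.70 and -2.30 at 96 h. The vit C arrays were below all UT arrays at 8, 48 and 96 h, and at 24 h only the higher vit C array reached past the lowest UT array. The difference was -1.17 ± 0.28 at 8 h (q = 0.0856), -0.77 at 24 h, -0.61 at 48 h and -2.29 ± 0.28 at 96 h (q = 0.00034). The average over the 4 times, -1.21 ± 0.15, was called (q = 0.000144). Both arms had their highest mean at 24 h, and the change from 8 to 24 h was called with vit C (1.31, q = 0.0111) and not in UT cells (0.91, q = 0.110). The difference between these changes was not tested on its own. From 8 to 96 h FOSB fell by 1.72 with vit C (q = 0.000433).

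FOSL1 and FOSL2 encode Fra-1 and Fra-2, Fos relatives that lack a strong activation domain. In UT cells FOSL1 lay at -1.08 and -1.26 at 8 h, -1.11, -0.61 and -0.34 at 24 h, -1.20 and -1.26 at 48 h, and -2.15, -2.08 and -3.32 at 96 h. In the vit C arm its values were -0.71, -0.91 and -0.65 at 8 h, -0.50 and -0.74 at 24 h, -0.94 and -0.92 at 48 h, and -2.27 and -2.43 at 96 h. It was lowest at 96 h in both arms, and the arms overlapped at 24 and 96 h. The change from 8 to 96 h was -1.35 ± 0.32 in UT cells (q = 0.0069) and -1.59 ± 0.32 with vit C (q = 0.00184). By its brightest probe, the UT change missed the threshold of q without UT replicate 1 of 8 h (-1.26, q = 0.065) and that of size without UT replicate 3 of 96 h (-0.95). The arms differed by 0.41 at 8 h and 0.30 at 48 h with no call, and at 24 and 96 h its 2 probes disagreed in sign.

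FOSL2 moved least among the Fos genes by its brightest probe. That probe lay between 0.13 and 1.39 on all 19 arrays, and its vit C effects ran from -0.78 at 24 h (q = 0.0857) to 0.30 at 96 h. Its 4 probes disagreed in sign at 48 and 96 h. The call from 8 to 96 h with vit C came from its dimmest probe, at -1.35, -1.58 and -0.98 at 8 h against -4.47 and -2.02 at 96 h. The 2 late arrays were far apart, and the brightest probe changed by -0.14 in the same comparison. Without vit C replicate 1 of 96 h the change of that probe was -0.72 and the call was lost (q = 0.337), as it was without replicate 3 of 8 h (-1.78, q = 0.0547), and without replicate 2 of 96 h the change was -3.17.

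JUN encodes c-Jun, the main transactivating partner in AP-1. In UT cells it lay at 5.64 and 5.81 at 8 h, 6.09, 6.01 and 5.97 at 24 h, 5.86 and 5.58 at 48 h, and 5.57, 5.79 and 5.07 at 96 h. Vit C-treated cells gave 5.45, 5.49 and 5.64 at 8 h, 5.71 and 4.78 at 24 h, 5.20 and 5.09 at 48 h, and 6.23 and 6.33 at 96 h. The vit C arrays were below all UT arrays at 24 and 48 h and above all UT arrays at 96 h. The differences were -0.78 ± 0.26 at 24 h (q = 0.147), -0.57 at 48 h and 0.80 ± 0.26 at 96 h (q = 0.0521), so none was called. A test of whether the 4 vit C effects differed from each other did not pass for JUN either (limma F test, q = 0.123).

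JUNB, a Jun relative that often opposes c-Jun, fell late. In UT cells it lay at 4.95 and 5.13 at 8 h, 5.77, 5.14 and 5.28 at 24 h, 5.25 on both arrays at 48 h, and 3.73, 4.03 and 4.10 at 96 h. With vit C it lay at 5.08, 5.24 and 5.06 at 8 h, 5.37 and 5.70 at 24 h, 4.76 and 4.84 at 48 h, and 3.36 and 3.25 at 96 h. All 96 h arrays were below all earlier arrays in both arms. The change from 8 to 96 h was -1.09 ± 0.21 in UT cells (q = 0.00152) and -1.83 ± 0.21 with vit C (q = 1.41e-05). The arms differed at 96 h by -0.65 ± 0.21 (q = 0.0487), under the threshold of size, and at 8 and 24 h its 2 probes had opposite signs.

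JUND, the Jun gene usually present in resting cells, did not fall in UT cells, where it changed by 0.12 ± 0.18 from 8 to 96 h. At 96 h it lay at 5.42, 4.99 and 5.04 in UT cells and at 4.33 and 4.20 with vit C. The vit C arrays were below all UT arrays, by -0.89 ± 0.18 (q = 0.0111), again under the threshold of size. The other 2 probes gave -0.91 and -0.72 at that time. At 8, 24 and 48 h the 3 probes disagreed in sign, and JUND was removed from those comparisons.

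ATF3 was the member whose vit C effect changed with time by the test. In UT cells it lay at 6.37 and 6.40 at 8 h, 6.55, 6.60 and 6.44 at 24 h, 6.32 and 6.38 at 48 h, and 5.36, 5.04 and 5.61 at 96 h. In vit C-treated cells ATF3 lay at 6.53, 6.44 and 6.43 at 8 h, 5.91 and 6.41 at 24 h, 5.44 and 5.31 at 48 h, and 3.49 and 3.65 at 96 h. The arms were close at 8 h, where the vit C arrays were slightly above, and from 24 h on every vit C array was below every UT array. The difference was 0.09 ± 0.20 at 8 h, -0.38 ± 0.20 at 24 h, -0.97 ± 0.22 at 48 h (q = 0.0237, just under the threshold of size) and -1.77 ± 0.20 at 96 h (q = 0.000146). The 4 effects differed from each other (limma F test, q = 0.0199), which passed for 1 of the 10 members and for 0.999% of the brightest probes of all genes. The second probe of ATF3 gave a difference of 0.38, -0.98, -0.23 and -1.70 at the 4 times, with 96 h called (q = 0.00302), and missed the threshold in the F test (q = 0.0637).

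EGR1, the early zinc finger factor of monocyte differentiation, had the widest range. In UT cells it lay at 3.95 and 4.09 at 8 h, 4.22, 3.87 and 3.76 at 24 h, 3.01 and 3.11 at 48 h, and 0.40, -0.06 and 0.76 at 96 h. The vit C arrays read 3.97, 4.26 and 3.90 at 8 h, 3.43 and 4.11 at 24 h, 2.50 and 2.52 at 48 h, and -0.58 and -0.63 at 96 h. The arms overlapped at 8 and 24 h and were apart, with vit C lower, at 48 and 96 h. EGR1 changed by -3.65 ± 0.25 from 8 to 96 h in UT cells (q = 2.11e-07) and by -4.65 ± 0.25 with vit C (q = 1.73e-08). The difference between the arms was -0.55 ± 0.28 at 48 h and -0.97 ± 0.25 at 96 h (q = 0.0332), just under the threshold of size.

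EGR3, a close relative of EGR1, was dim. Its brightest probe was well above background on 17 of 19 arrays, all but 1 UT and 1 vit C array of 96 h. In UT cells it lay at -1.44 and -1.76 at 8 h, -1.99, -2.60 and -1.98 at 24 h, -1.70 and -2.08 at 48 h, and -3.74, -4.84 and -3.18 at 96 h. With vit C it lay at -2.08, -1.72 and -2.44 at 8 h, -3.68 and -2.66 at 24 h, -2.64 and -2.39 at 48 h, and -5.68 and -6.27 at 96 h. The arms overlapped at 8 h only, and vit C was lower at the later times. The difference at 96 h was -2.05 ± 0.43 (q = 0.0128) and the average over the 4 times -1.04 ± 0.22 (q = 0.00699). With signals under 20 raised to 20, the difference at 96 h was -0.70 and was no longer called. The call at 96 h was also lost without vit C replicate 1 (-2.35, q = 0.055) or replicate 2 (-1.76, q = 0.164), and that of the average in 6 of the 19 fits without 1 array (-0.91 to -0.99). Its other 2 probes, dimmer still, gave -0.88 and -1.29 at 96 h with no call. There they were well above background on 1 UT array and on no array, respectively, so these sizes are uncertain. From 8 to 96 h EGR3 changed by -2.33 ± 0.43 in UT cells (q = 0.00123) and by -3.89 ± 0.43 with vit C (q = 1.11e-05). These changes stayed called but were -1.17 and -2.01 with normexp, and that with vit C was -2.43 with signals under 20 raised to 20.

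**Figure D2:**
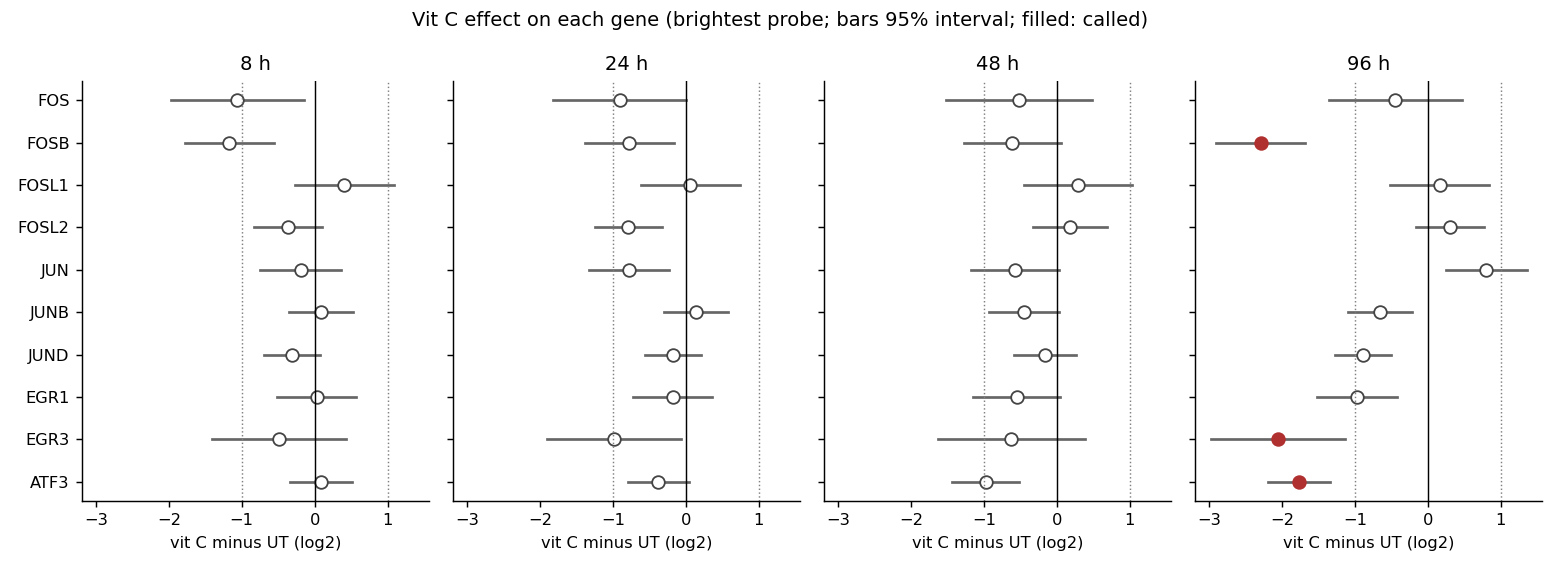
Difference between vit C-treated and UT cells (log2, x axis) for each gene (y axis) at 8, 24, 48 and 96 h. Points are differences of the brightest probe, bars 95% intervals, filled points called genes, and dotted lines the threshold of size. The 3 filled points, FOSB, EGR3 and ATF3, are all at 96 h and lie at -2.29, -2.05 and -1.77.

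Counted together, 0 of the 8 members that could be tested at 8 h were called, beside 0.553% of all genes tested. At 24 h it was 0 of 7, beside 1.67%, and at 48 h 0 of 8, beside 3.64%. At an unadjusted p of 0.05, with no threshold of size, the brightest probe passed for 2, 4 and 1 of the 10 at these times, beside 12.1%, 15.9% and 15.4% of all genes. The methods' t-test with the same adjustment called 11, 0, 1 and 0 of all genes at the 4 times and no member at any of them. At 96 h 3 of 8 tested were called lower, beside 10% of all genes called lower, and none higher, beside 2.73%. The direction of the calls over all genes at 96 h depended on the scaling, with 2644 lower and 719 higher here, 440 and 560 after quantile normalization, 711 and 737 with a percentile over detected probes, 595 and 227 with normexp and 293 and 474 with signals under 20 raised to 20. The number called, 3363, was 479 and 534 without vit C replicate 1 or 2 of 96 h, 1390 and 1177 without UT replicate 1 or 2, and 5965 without UT replicate 3. The share of all calls that were lower was 40.3% at 8 h and 50.1% at 24 h, 7.96% and 37.3% with normexp, and at 24 h 34.4% after quantile normalization. For the average of the 4 effects it was 40.1%, against 219 lower and 658 higher calls after quantile normalization, 15.9% lower with normexp and 18.7% with signals under 20 raised to 20. The average of the 4 effects was called for 2 of 9 tested, FOSB and EGR3, both lower, beside 1.4% of all genes. The median difference of the 10 members was -0.25, -0.57, -0.54 and -0.77 at the 4 times, and that of all genes -0.05, -0.13, -0.01 and -0.15. Vit C was below UT for 6, 8, 8 and 7 of the 10. Groups did not overlap, with vit C lower, for 4, 5, 8 and 6 members, beside 23.9%, 18.3%, 28.4% and 26.2% of all genes.

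Values that moved with the 96 h result included those of the slide, given above, and of marker lists. The summed level of the 3 fibroblast markers (COL1A1, COL1A2 and DCN, in units of the 75th percentile of each array) was 4.22 to 4.79 in the vit C arrays of 96 h and 0.672 to 1.27 in the UT arrays. COL1A2 was well above background on no array, COL1A1 on 5 and DCN on 14. The summed level of the 8 macrophage markers was 293.6 to 303.1 with vit C and 284.6 to 328.1 in UT cells at 96 h. The 3 epithelial markers, all not well above background, summed to 0.00981 to 0.0122 with vit C and 0.0170 to 0.0255 in UT cells. At the earlier times other marker levels lay apart between the arms. The fibroblast sum was 0.0820 to 0.114 with vit C and 0.0638 to 0.0742 in UT cells at 24 h, and 2.17 to 2.21 and 0.400 to 0.499 at 48 h. The B cell marker CD79A was at 3.07 to 3.43 with vit C and 0.942 to 1.60 in UT cells at 8 h, and at 3.27 to 4.56 and at most 2.23 at 48 h. The sum of the 3 T cell markers was 0.186 to 0.200 with vit C and 0.130 to 0.140 in UT cells at 24 h, and 0.207 to 0.275 and 0.171 to 0.201 at 48 h. That of the macrophage markers was 391.6 to 415.9 and 366.4 to 384.5 at 48 h. The part of these in the results between the arms, members and lists alike, was not tested.

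The change with time was the wider one. From 8 to 96 h in UT cells 5 of 10 members were called lower, beside 7.16% of all genes, and none higher. Their median change was -0.97 and that of all genes 0.03. The sum of the fibroblast markers was 0.0391 to 0.0488 in UT cells and 0.0308 to 0.0538 with vit C at 8 h, below the values of 96 h given above. That of the macrophage markers was 346.0 to 395.8 in UT cells and 317.5 to 374.1 with vit C at 8 h. It was lower at 96 h on every array of either arm. With vit C CD79A was at least 3.07 at 8 h and at most 1.199 at 96 h. The epithelial sum with vit C was at least 0.0189 and then at most 0.0122. In UT cells the 8 and 96 h ranges of both overlapped. The T cell sum was at most 0.144 and then at least 0.176 in UT cells, and 0.151 and 0.1901 with vit C. The neutrophil sum (CEACAM8 and MPO) was at least 0.0586 and then at most 0.0329 in UT cells, and 0.0393 and 0.02697 with vit C. The part of these levels in the changes was not tested. With vit C 7 of 10 were called lower, beside 18.1%, and their median was -1.65 against -0.17 for all genes. Of the genes called with vit C in that span, 4913 were lower and 2962 higher, against 2410 and 2800 after quantile normalization and 1788 and 2344 with signals under 20 raised to 20. From 8 to 24 h none of the 10 was called in UT cells, beside 2.63%, with 1 at an unadjusted p of 0.05, beside 15.3%. With vit C FOSB rose and ATF3 fell, the latter by its second probe alone (-1.15, q = 0.0224). These are 1 of 8 tested each way, beside 2.93% of all genes called higher and 2.69% called lower, or 5.62% either way. Slide as a fixed term could be fitted from 8 to 96 h for UT cells only. The change then rests on UT replicate 1 of 96 h, the 1 array of that group on slide 1. It was -3.61 for EGR1, -2.15 for EGR3, -1.31 for JUNB and -1.02 for ATF3. For FOSL1 it was -0.99, under the threshold of size. In UT cells the brightest probe of JUNB fell short of the threshold of size without replicate 1 of 96 h (-0.98) and that of ATF3 without replicate 2 (-0.90), while 6 members were called in each of these fits. With vit C from 8 to 24 h the call of FOSB was lost without replicate 2 of 24 h (0.97, q = 0.174), and that of ATF3 without that array or without replicate 1 or 2 of 8 h.

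The difference between the arms in the change from 8 to 96 h was also tested directly, in a contrast chosen after the values were seen. For ATF3 the change with vit C exceeded that in UT cells by -1.86 ± 0.28 (q = 0.00719), beside 1.04% of all genes that passed by q. FOSB gave -1.12 ± 0.40 (q = 0.120), EGR3 -1.57 ± 0.61 (q = 0.147), EGR1 -1.0 ± 0.36 (q = 0.123), JUNB -0.74 ± 0.29 (q = 0.157) and JUN 0.99 ± 0.37 (q = 0.129). FOS (0.62, q = 0.618) and FOSL2 (0.67, q = 0.225) had positive values like JUN, and FOSL1 (-0.24, q = 0.819) and JUND (-0.57, q = 0.212) negative ones. None of these 9 passed.

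**Figure D3:**
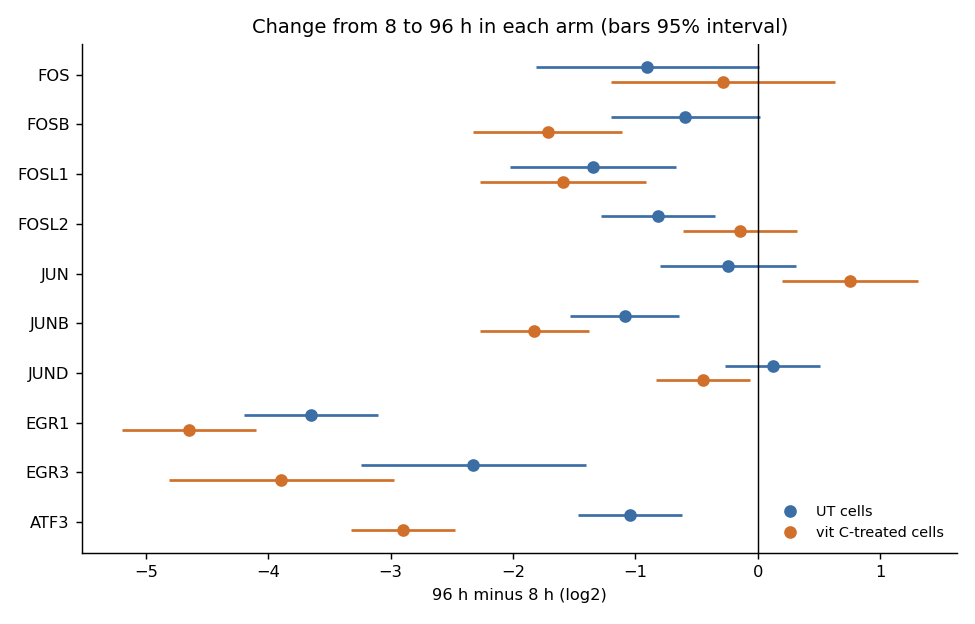
Change from 8 to 96 h (log2, x axis) of each gene (y axis) in UT cells (blue) and vit C-treated cells (orange), as differences of the brightest probe with 95% intervals. EGR1 changed by -3.65 and -4.65, ATF3 by -1.04 and -2.90, and JUN by -0.24 and 0.75.

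Over the 8 group means the courses of the members were compared as a description, with time and treatment shared by all points. The closest pair was JUNB and EGR1 (r = 0.96), followed by EGR3 and ATF3 (r = 0.93) and FOSL1 and EGR1 (r = 0.92). JUN correlated at 0.17 with FOS and 0.14 with FOSL2, and negatively with the other 7, down to r = -0.50 with JUND. Among 9989 genes compared, the courses closest to EGR1 were those of SPOCD1 (r = 0.994), DOCK6 (r = 0.992) and PPP1R10 (r = 0.992). For FOS they were CILP2 (r = 0.994), CSNK2B (r = 0.973) and ANXA11 (r = 0.965), and for JUN ZFX (r = 0.899), HSP90AA1 (r = 0.897) and FRMD4B (r = 0.893).

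The other genes of the pathway were taken from 5 lists. These were chosen with earlier results of these data known, so their shares beside those of all genes are a description. Of the other immediate early genes, 19 of 24 could be tested at 96 h, and 6 were lower with vit C, beside 10% of all genes, and 1 higher, beside 2.73%. EGR2, which acts with EGR1 in macrophage differentiation, differed by -2.64 ± 0.28 (q = 0.00011). The orphan nuclear receptors NR4A3 and NR4A1 differed by -2.13 ± 0.30 (q = 0.000971) and -1.47 ± 0.32 (q = 0.0168). IER2 (-1.22) and GADD45B (-1.38) were lower as well, and EGR4 was called although its brightest probe was not well above background on any array of either group. ARC was the 1 gene higher (q = 0.005), from a UT group not well above background, so that no fold is given. The list had a median of -0.60 at 96 h and of -0.45, -0.47 and -0.46 at 8, 24 and 48 h, when 1, 3 and 1 of its genes were called lower (CYR61 at 8 h, CYR61, KLF4 and ZFP36 at 24 h, SGK at 48 h), beside 0.223%, 0.839% and 1.53% of all genes. At 48 h ARC was higher, beside 2.1%. With slide as a fixed term none of these calls at 8 and 24 h was made, while the brightest probe of CYR61 gave -0.87 without the term and -0.78 with it at 8 h, and -1.19 and -1.09 at 24 h. At 24 h KLF4 went from -1.72 to -1.11 and ZFP36 from -1.35 to -0.93. At 48 h SGK was called with the term (-4.26, q = 0.00307) and ARC was not (1.18, q = 0.398).

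**Figure D4:**
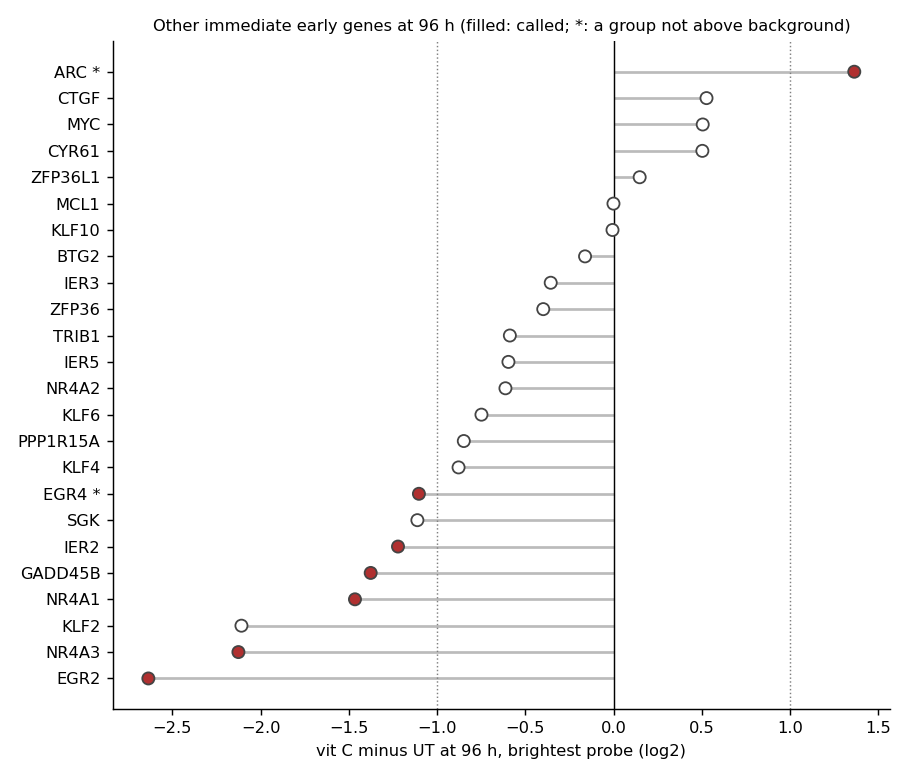
Difference between vit C-treated and UT cells at 96 h (log2, x axis) of the 24 other immediate early genes (y axis), by their brightest probe. Filled points were called by any probe and a star marks a brightest probe not well above background on any array of 1 or both groups. EGR2 (-2.64) and NR4A3 (-2.13) lie farthest to the left.

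In UT cells from 8 to 96 h, 9 of 20 tested other immediate early genes were lower and 1 higher, beside 7.16% and 8.9% of all genes. EGR4 fell by at least 12.8-fold, since no UT array of 96 h was well above background, and IER3 changed by -2.10 (q = 5.12e-06). CYR61, which encodes a matrix-associated growth regulator, rose by 2.59 (q = 2.63e-05). With vit C 16 of 24 were lower, beside 18.1%, and 2 higher, beside 10.9%, with EGR2 at -4.84 ± 0.28 (q = 2.57e-08).

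Feedback inhibitors of the MAP kinases, themselves induced by the signal they damp, were called lower with vit C for 2 of 11 tested at 48 h, beside 1.53% of all genes, and for 1 of 14 at 96 h, beside 10%, a share of all genes that depended on the scaling as given above. None was called higher at either time. SPRED1 was lower at 48 h (-2.26 ± 0.27, q = 0.000706), as was the ERK phosphatase gene DUSP6 (-1.05, q = 0.0448), and SPRY1 was lower at 96 h (-1.97 ± 0.37, q = 0.00635). With slide as a fixed term SPRED1 (-2.48 ± 0.50, q = 0.0597) and DUSP6 (-0.93 ± 0.50, q = 0.654) were not called. None of the 15 was called at 8 or 24 h, beside 0.553% and 1.67% of all genes, with 13 and 12 tested. At an unadjusted p of 0.05 the brightest probe of 4 and 3 of the 15 passed at these times, beside 12.1% and 15.9% of all genes. From 8 to 96 h 6 of 13 tested were lower in UT cells, among them DUSP2 (-2.97), DUSP5 (-1.92) and DUSP6 (-1.75), beside 7.16% of all genes, and none was higher. Of the upstream kinases and SRF partners, none was called at 8, 24 or 48 h, beside 0.553%, 1.67% and 3.64% of all genes (17, 16 and 15 tested). At an unadjusted p of 0.05 the brightest probe of 3, 4 and 0 of the 21 passed, beside 12.1%, 15.9% and 15.4%. At 96 h 1 of 17 was lower, beside 10%, and this was ELK1, whose probe was not well above background in either group. Of the other bZIP factors none was called between the arms at any time, with 13, 13, 14 and 16 tested, beside 0.553%, 1.67% and 3.64% of all genes called at 8, 24 and 48 h and 10% lower and 2.73% higher at 96 h. At an unadjusted p of 0.05 the brightest probe of 2, 2, 4 and 4 of the 20 on the array passed, beside 12.1%, 15.9%, 15.4% and 24.9%. With time in UT cells 1 of 15 was higher from 8 to 96 h, beside 8.9%, and 4 lower, beside 7.16%. JDP2, a repressor that pairs with Jun proteins, rose by 2.72 ± 0.20 (q = 3.24e-07), and MAFF (-2.30), MAFK and ATF5 were among the genes that were lower. With slide as a fixed term, where the change rests on 1 UT array of 96 h, MAFK (-1.27) and ATF5 (-0.52) were no longer called.

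The known target genes of AP-1 and EGR moved in both directions. From 8 to 24 h 11 of 26 were higher in UT cells, beside 1.37% of all genes, and none lower. Over all genes 48.0% of the calls in that span were lower, and 37.3% with normexp. The matrix protease gene MMP3 rose by 5.38 ± 0.35 (q = 2.91e-06), MMP10 by 3.43 ± 0.45 (q = 0.000724) and the chemokine gene CCL2 by 2.20 ± 0.20 (q = 3.58e-05). With vit C 15 of 25 tested were higher in that span, beside 2.93%, and none lower. The fibroblast sum was at most 0.0488 at 8 h and at least 0.0638 at 24 h in UT cells. With vit C it was at most 0.0538 and at least 0.0820. The neutrophil sum (CEACAM8 and MPO) was at least 0.0586 at 8 h and at most 0.0366 at 24 h in UT cells. With vit C it was at least 0.0393 and at most 0.0285. The T cell sum with vit C was at most 0.151 at 8 h and at least 0.186 at 24 h. The part of these sums in the rises was not tested. From 8 to 96 h 4 of 24 tested were higher, beside 8.9% of all genes, and 11 lower, beside 7.16%, in UT cells, where TNF changed by -3.01 and MMP9 by -1.23.

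Between the arms at 8 h 2 of 22 tested targets were lower with vit C, beside 0.223% of all genes, LIF (-1.66, q = 0.0134) and MMP3 (at least 1.46-fold, q = 0.0152), and none was higher, beside 0.33%. At 24 h 1 of 23 was higher, beside 0.835% of all genes, and 1 lower. MMP1, the interstitial collagenase, was lower, at -2.0 ± 0.22 (q = 0.000444) and EREG, an EGF receptor ligand, was higher, at 1.61 ± 0.28 (q = 0.0128). At 48 h 4 of 24 were higher, beside 2.1% of all genes, and 4 lower, beside 1.53%, led by PTGS2, which encodes cyclooxygenase-2, at 2.06 ± 0.36 (q = 0.00746) and TIMP1, a protease inhibitor, at -1.59 ± 0.26 (q = 0.00486). At 96 h 2 of 23 were higher, beside 2.73%, and 1 lower, beside 10%. PTGS2 (1.52 ± 0.33, q = 0.0156) and EREG were higher, the latter by a probe not well above background on every array of either group, and TIMP1 was lower (-1.36, q = 0.00439). None of the calls of targets at 8, 24 and 48 h was made with slide as a fixed term, where SE were wider. LIF at 8 h was then -1.14 ± 0.38 (q = 0.626), MMP1 and EREG at 24 h -1.95 ± 0.38 (q = 0.115) and 1.31 ± 0.49 (q = 0.482), and PTGS2 and TIMP1 at 48 h 2.77 ± 0.62 (q = 0.0965) and -1.22 ± 0.46 (q = 0.405). The median of the list was -0.36, -0.29, -0.36 and -0.30 at the 4 times.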

How the data were processed

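The authors extracted spot intensities with Agilent Feature Extraction (version 10.5.1.1 per the file headers), without normalization between arrays. In the headers spatial and multiplicative detrending and surrogates for low signals were on, and the separate background correction setting was off. The paper calls the processed intensities background subtracted. The log2 values that the authors deposited in the series matrix were shifted to the 75th percentile of each array, and served here as an alternative. RNA of sufficient integrity was hybridised for 19 samples, separate flasks of 1 cell line, so p-values measure the spread between flasks. Here the deposited processed intensity was taken to log2, merged over replicate spots by their mean, and shifted by the array's own 75th percentile (296.8 to 923.7). The scanner's flag for well above background, another deposited column, gave detection; depth is not a count here and the number of arrays limits the precision. One model of 8 group means over 19 arrays was fitted in limma 3.58.1 (R 4.3.3; lmFit and eBayes, 2-sided), with calls at an absolute log2 difference of at least 1 and q of at most 0.05. SE and intervals come from that fit. Python 3.11.15 and matplotlib 3.10.9 drew the figures. Other normalizations, floors, tests, blocks and left-out arrays were tried as alternatives. All members were named. From the lists, called genes were named by size of change where the scanner had flagged the called probe as measured throughout a compared group, and others named were chosen after their values were seen. The members and gene lists were chosen with earlier results of these data known. No per-sample column was left unused. The replicate numbers did not pair samples. Some genes of the lists are not reported here.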

Additional observations from a re-analysis of the deposited data

Results flagged for a closer look

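The vit C effect on ATF3 differed between the 4 time points by a test of the difference itself (limma F test over 3 contrasts, q = 0.0199), from 0.09 at 8 h to -1.77 at 96 h. By its second probe the test missed the threshold (q = 0.0637). Slide 4, scanned on another day, held only the vit C arrays of 96 h. A change of the effect with time therefore cannot be told apart from slide. Every vit C array was below every UT array at 24, 48 and 96 h by the brightest probe. The call was lost in 5 of the 19 fits that left out 1 array, each of UT replicates 1 and 2 and vit C replicate 1 of 8 h and both vit C arrays of 96 h, and with replicate number as a block.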

How the results depend on the processing

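No called difference of a member changed sign under the alternatives tried, but counts of members called moved. At 96 h between the arms, where 3 were called, fits on each comparison's own 2 groups and the methods' t-test with Benjamini-Hochberg adjustment called 0, dropping the threshold of size 6 and array weights 5. From 8 to 96 h in UT cells, where 5 were called, these 2 fits gave 2 and 0, and from 8 to 24 h with vit C, where 2 were called, both gave 0 and gene means of probes 1. For the average effect, where 2 were called, normexp, a percentile over detected probes, a floor of 20 and gene means each gave 1, and no threshold of size 7. The F test, which called 1, gave 2 with normexp, 6 by unadjusted p and 3 with array weights. Where 0 were called, 1 was called at 8 h with an intensity trend or array weights, and 1 at 48 h with the floor, with dim probes left out, without the threshold of size or with array weights. With unadjusted p in place of q, and the threshold of size kept, it was 2, 1 and 1 at 8, 24 and 48 h. These settings moved the calls of all genes too. Array weights took them from 139 to 1063 (8 h), from 926 to 1891 (48 h) and from 3363 to 5803 (96 h). An intensity trend gave 211 (8 h). For 48 h the floor gave 746, dim probes left out 1156 and no threshold of size 1104. Unadjusted p gave 1771, 2242 and 2456 genes, in the order of time. The added member calls are therefore not particular to the members. The causes were not tested, except that fewer arrays enter the 2-group fits.

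The replicate block, whose numbers came from the sample titles (at 48 h another label numbers the same arrays 2 and 3) and did not pair the samples (correlations of deviations -0.31 to 0.13), gave 0, 0, 0 and 3 between the arms at the 4 times and 0 in the F test.

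Leaving out 1 array gave 2 to 5 members at 96 h (5 without UT replicate 3), 0 to 1 at 24 h (1 without vit C replicate 1 of 24 h), 1 to 3 for the average, 0 to 2 in the F test, 1 to 2 from 8 to 24 h with vit C, 5 to 6 from 8 to 96 h in UT cells, 6 to 7 with vit C, and 0 to 0 at 8 and 48 h. EGR3 at 96 h lost its call without either vit C array of 96 h (q = 0.055 and 0.164). FOSB kept its average call in all 14 alternatives and in all 19 such fits, and EGR3 in 10 of 14 and 13 of 19. The genes called over the whole array also moved with 1 array left out, from 139 to between 14 and 83 at 8 h, from 437 to between 92 and 368 at 24 h, from 926 to between 281 and 536 at 48 h, from 688 to between 265 and 610 from 8 to 24 h in UT cells, from 1473 to between 976 and 1416 in that span with vit C and from 7875 to between 4155 and 7488 from 8 to 96 h with vit C. The lowest of these came without UT replicate 2 of 8 h, vit C replicate 2 of 24 h, UT replicate 2 of 48 h, UT replicate 2 of 8 h, vit C replicate 2 of 24 h and vit C replicate 2 of 96 h, respectively. The median of all genes at 96 h was -0.15, and -0.40 with normexp, where the sign of the uncalled FOSL1 effect turned (-0.07). Slide as a fixed block could not be fitted for the comparisons that hold vit C arrays of 96 h. The dim signal of EGR3 limits its precision.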
